A study of Mus musculus with 12 samples.

Results

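The NRF2 and antioxidant genes described here are 10 genes: *Nfe2l2*, which encodes the transcription factor NRF2, *Keap1*, which encodes its inhibitor, and the 8 antioxidant genes *Hmox1*, *Nqo1*, *Gclm*, *Gclc*, *Srxn1*, *Txnrd1*, *Slc7a11* and *Gsr*. They were taken by symbol, and all 10 were found among the 53379 genes of the count table after its Ensembl identifiers were matched to GENCODE M21. RNA was sequenced from bone marrow-derived macrophages (BMDMs), which are macrophages grown from mouse bone marrow in medium conditioned by L929 cells. The study asked how these cells respond to stimulation of the β2-adrenergic receptor (B2AR). BMDMs of 4 wild-type C57Bl/6J mice were left untreated or were given 1 μM fenoterol, a B2AR-selective agonist, for 1 h or 4 h, which made 3 groups of 4 libraries. Each mouse gave a library to every group. According to the study's methods, mice used to make BMDMs were male. The control BMDMs carried no agent, and their labels give neither a vehicle nor a time.

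In resting cells KEAP1 binds NRF2 and presents it to the CUL3 ubiquitin ligase, so that the NRF2 protein is made and destroyed continuously. Oxidants and electrophiles modify cysteines of KEAP1, NRF2 escapes degradation, enters the nucleus with a small MAF partner and binds antioxidant response elements in the genes of glutathione synthesis, thioredoxin reduction, quinone reduction and haem breakdown, while BACH1 competes for the same elements. In macrophages these genes protect against the oxidants made during phagocytosis and limit inflammatory cytokine production. Because NRF2 is controlled largely through its protein, the mRNA counts below do not measure its activity.

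Fenoterol raised the mRNA of the cystine transporter *Slc7a11*, of sulfiredoxin (*Srxn1*), of thioredoxin reductase (*Txnrd1*) and of the catalytic subunit of glutathione synthesis (*Gclc*) within 1 h, and these 4 genes were also above the untreated level at 4 h. The modifier subunit *Gclm* was higher at 4 h, and so was glutathione reductase (*Gsr*), whose call was lost in 6 of 22 alternatives. Haem oxygenase (*Hmox1*) fell by 0.42 on the log2 scale at 1 h and did not pass the test against untreated BMDMs at 4 h. *Keap1* fell by 0.25 on the log2 scale at 1 h, a call that was lost when single libraries were left out. *Nfe2l2* itself and *Nqo1* did not pass the test at either time against untreated BMDMs in the fit without a block. With the mouse as a block, which uses the pairing of the libraries, *Nfe2l2* passed at 1 h (0.18, adjusted p = 0.00853) and *Nqo1* at 4 h (0.35, adjusted p = 0.0206). *Keap1* at 1 h (-0.25, adjusted p = 0.00735) and *Gsr* at 4 h (0.34, adjusted p = 0.000192) also passed with the block.

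Promoters of 4 members that rose are shown, each chosen because its window holds a match to a searched response element. The RefSeq promoter table for GRCm38.p6 gives 250 bases before and 50 after each annotated start, and it held 9 promoters of 7 members. *Hmox1*, *Gclc* and *Gsr* are not among them. The promoters of *Keap1* and *Nqo1* and the other 2 of *Txnrd1* hold no match, and they are not printed. The sequences below run 5′ to 3′ on the strand of the gene, with every match to a searched motif in capitals. *Slc7a11* is shown at chr3:50443564-50443863 on the minus strand, *Srxn1* at chr2:152105274-152105573 on the plus strand, *Gclm* at chr3:122245307-122245606 on the plus strand, and the second of 3 annotated starts of *Txnrd1* at chr10:82858956-82859255 on the plus strand.
Slc7a11: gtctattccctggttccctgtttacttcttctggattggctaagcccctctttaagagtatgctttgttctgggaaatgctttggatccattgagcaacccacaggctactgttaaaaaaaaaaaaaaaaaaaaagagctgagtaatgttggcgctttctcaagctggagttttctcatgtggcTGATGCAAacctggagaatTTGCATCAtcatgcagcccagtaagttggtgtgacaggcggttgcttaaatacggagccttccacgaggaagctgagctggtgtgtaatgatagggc
Srxn1: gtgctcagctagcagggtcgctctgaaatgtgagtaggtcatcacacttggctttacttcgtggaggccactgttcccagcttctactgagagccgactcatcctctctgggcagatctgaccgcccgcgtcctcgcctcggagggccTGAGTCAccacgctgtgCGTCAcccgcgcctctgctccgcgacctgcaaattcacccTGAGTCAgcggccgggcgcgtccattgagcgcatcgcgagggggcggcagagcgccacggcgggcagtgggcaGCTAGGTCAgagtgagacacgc
Gclm: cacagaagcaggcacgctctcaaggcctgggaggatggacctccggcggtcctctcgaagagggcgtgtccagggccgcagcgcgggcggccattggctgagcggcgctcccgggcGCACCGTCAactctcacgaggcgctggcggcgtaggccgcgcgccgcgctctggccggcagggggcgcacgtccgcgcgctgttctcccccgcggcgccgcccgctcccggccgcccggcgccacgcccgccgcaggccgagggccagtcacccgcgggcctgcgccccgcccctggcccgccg
Txnrd1: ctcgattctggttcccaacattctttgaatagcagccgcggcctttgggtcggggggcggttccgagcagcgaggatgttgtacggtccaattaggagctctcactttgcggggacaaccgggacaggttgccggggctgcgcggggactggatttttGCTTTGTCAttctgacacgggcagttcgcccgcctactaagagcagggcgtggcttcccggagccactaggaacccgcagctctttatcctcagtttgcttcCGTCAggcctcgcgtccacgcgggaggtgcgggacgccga
The capitals in *Slc7a11* mark 2 matches to TGATGNAA, the element bound by C/EBP and ATF dimers, at bases -66 to -59 and -47 to -40, where base 0 is the first transcribed base. They face opposite ways, and 3.97% of the 32851 promoters in the table hold this motif on either strand. *Srxn1* holds the AP-1 site TGANTCA at -102 to -96 and at -45 to -39, a motif found in 7.81% of promoters. The core of the antioxidant response element, TGACNNNGC or its reverse complement GCNNNGTCA, lies at 28 to 36 in *Srxn1*, at -134 to -126 in *Gclm* and at -92 to -84 in this *Txnrd1* promoter, and also at -240 to -232 in *Nfe2l2*. That core is in 12.4% of all promoters and in 4 of the 9 promoters of the members. The cAMP response element half-site, TGACG or CGTCA, is in 20.8% of promoters, and it lies at -85 to -81 in *Srxn1*, at 10 to 14 in *Txnrd1* and at -130 to -126 in *Gclm*, where it overlaps the antioxidant core. The full cAMP response element TGACGTCA is in 1.79% of promoters and in 0 of the 9. Other forms of these elements were not searched, and a match does not show that a factor was bound.

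**Figure D1:**
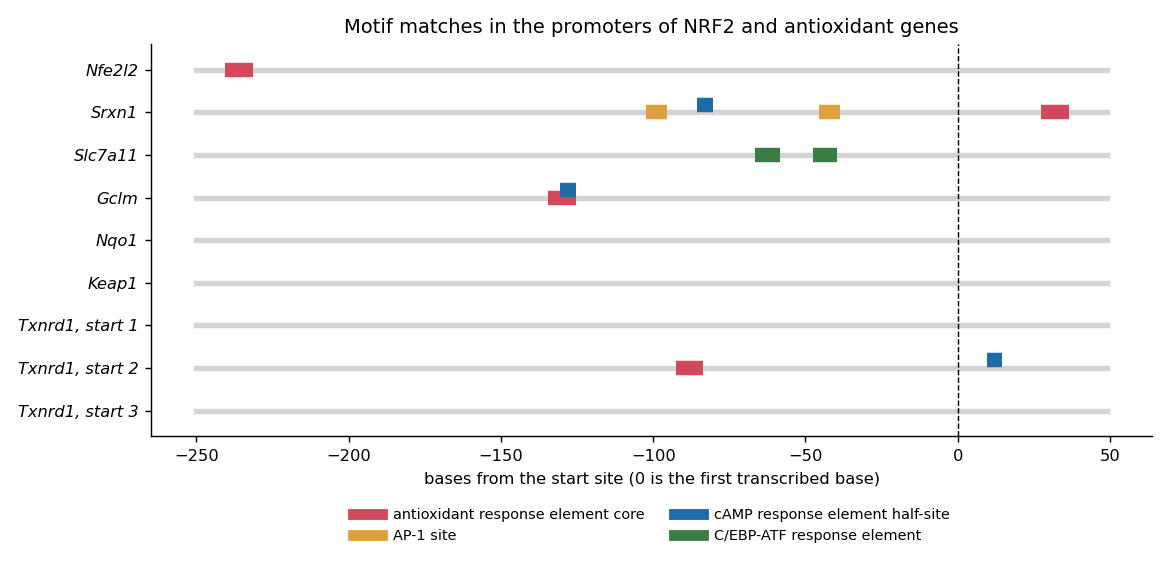
Motif matches in the 9 promoters of 7 NRF2 and antioxidant genes, with each grey line spanning 250 bases before to 50 bases after the start site (x axis, bases) and each coloured block marking a match on either strand. *Slc7a11* carries 2 C/EBP-ATF elements and no antioxidant core in this window, *Srxn1* carries 2 AP-1 sites beside an antioxidant core, and the windows of *Nqo1* and *Keap1* hold none of the motifs searched.

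The total count was 14580533 to 24153284 per library, and 12386 genes passed edgeR's filter on low counts, among them all 10 members. Values below are normalized counts, meaning counts scaled by the trimmed mean of M-values (TMM) to a common library size. A gene was called when its adjusted p in edgeR's quasi-likelihood test was under 0.05. The 6 macrophage markers, such as *Adgre1* and *Csf1r*, summed to 11422 to 14543 CPM (counts scaled to a common library total), those of T, B, dendritic, mast and erythroid cells to at most 1.23 CPM for each type, neutrophil markers to 16.6 to 31.6 CPM and fibroblast markers to 19.3 to 60.7 CPM, the last pair with no separation of the groups. The macrophage sum was 11422 to 12731 CPM at 4 h, below the 13198 to 14439 CPM of untreated libraries, and its part in the results was not tested. In bulk RNA, fewer expressing cells and less RNA per cell cannot be told apart. Reads of 3 members could be shared with other annotated genes, since 7.78% of the 50-base stretches of *Keap1*, 4.58% of those of *Gclm* and 1.47% of those of *Slc7a11* also occur in another gene. Of the exon bases of *Keap1*, 10.9% lie opposite *Gm16754*, which held 21 counts against 16302 of *Keap1*. Of those of *Gclm*, 4.71% lie opposite *Gm17494*, which held 15 counts against 28524. Another 3.88% lie on the same strand as *Gm6061*, which held 0 counts. The gene that most often held the shared 50-base stretches of *Gclm* was *Ppia*, and its part in the counts was not tested.

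In untreated BMDMs the members spanned a wide range of levels, given here as CPM per kb of exon so that genes can be compared. *Hmox1* (chr8:75093621-75100589, plus strand), which breaks haem down to biliverdin, iron and carbon monoxide, stood highest of the 10 at 434 ± 32.5 CPM per kb (SD, n = 4). *Nfe2l2* followed at 115 ± 5.90, *Srxn1* at 57.6 ± 4.98 and *Txnrd1* at 28.2 ± 2.43 CPM per kb. *Gsr* at 17.3 ± 1.91, *Gclm* at 16.5 ± 1.99 and *Keap1* at 15.6 ± 0.257 CPM per kb did not differ beyond their spread. *Gclc* was at 11.8 ± 0.864, *Nqo1* at 3.82 ± 0.761 and *Slc7a11* at 0.0663 ± 0.0245 CPM per kb, so the transporter that supplies cystine was the lowest member by a wide margin. At 4 h *Srxn1* reached 164 ± 23.8 CPM per kb and stood above *Nfe2l2* at 107 ± 8.91, the reverse of their order in untreated BMDMs. *Hmox1* remained the highest and *Slc7a11* the lowest member in all 3 groups.

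**Figure D2:**
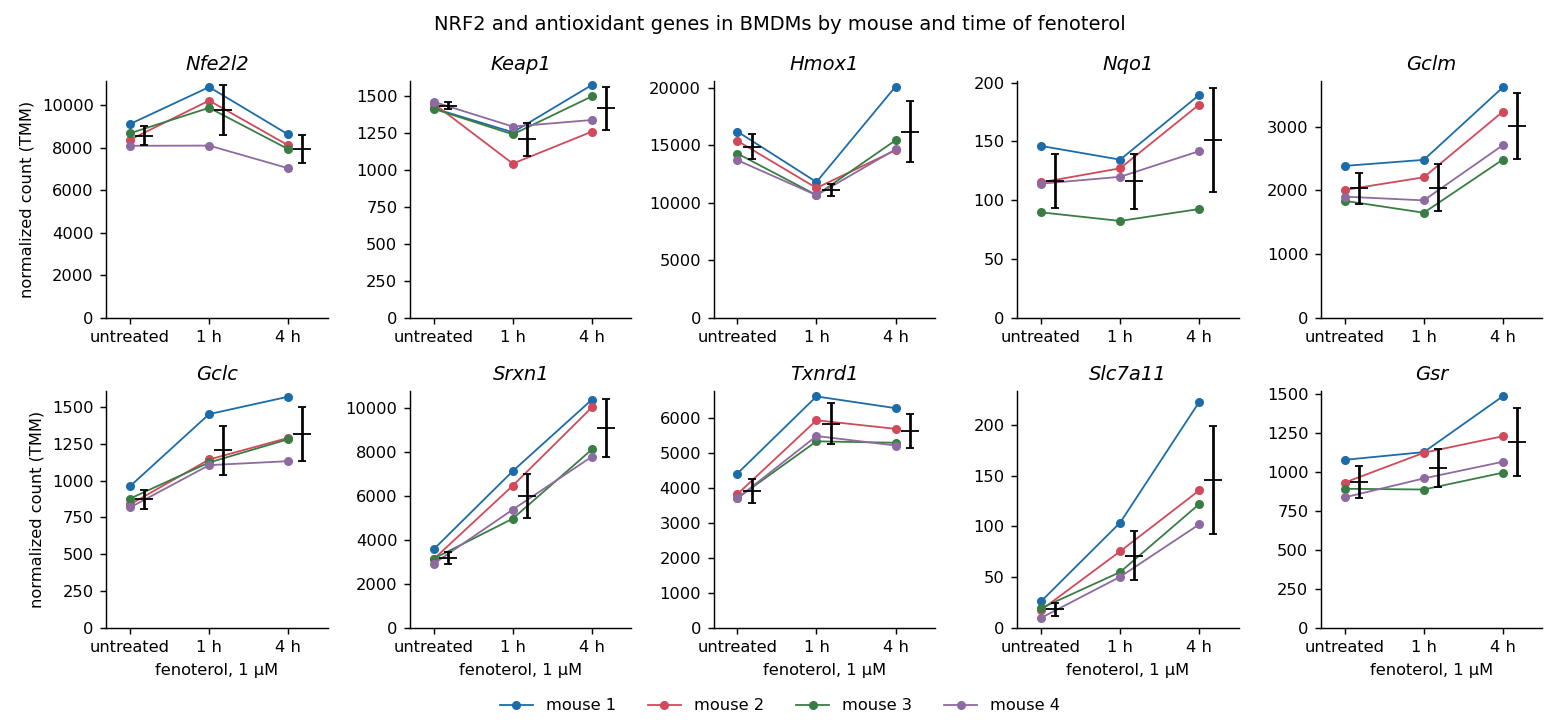
Normalized count (y axis, TMM-scaled counts, linear scale from 0) of each of the 10 genes in untreated BMDMs and after 1 h and 4 h of 1 μM fenoterol, with a line per mouse and with the group mean and SD beside the points (n = 4). *Slc7a11* and *Srxn1* climb at both times in all 4 mice, *Hmox1* dips at 1 h and is at 14585 or more at 4 h, and mouse 1 lies on top in most panels.

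At 1 h, 6 of the 10 members passed the test, 4 higher and 2 lower, beside 20.1% of all genes tested (10.0% higher and 10.1% lower). At 4 h, 6 members passed and all 6 were higher, beside 40.0% of all genes tested (19.7% higher and 20.4% lower). The median log2 fold change of the members was 0.16 at 1 h and 0.45 at 4 h, and that of all genes tested was -0.00486 and 0.00420. The 2 comparisons share the untreated libraries. Untreated and 1 h libraries did not overlap for 6 members, beside 23.0% of all genes, and untreated and 4 h libraries did not overlap for 5, beside 37.6%.

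**Figure D3:**
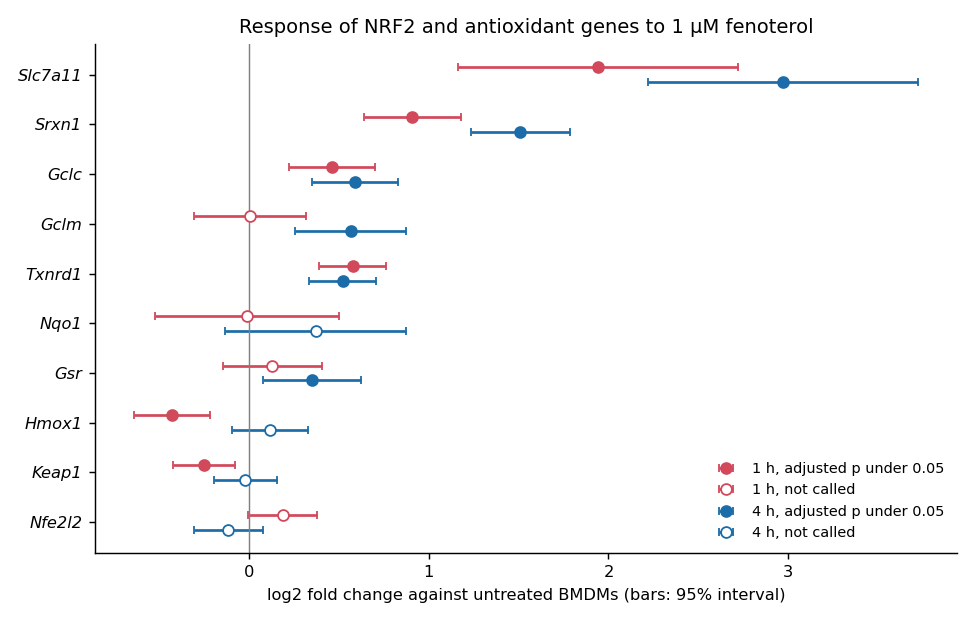
Log2 fold change of each of the 10 genes against untreated BMDMs (x axis) at 1 h and at 4 h of fenoterol, with bars for the 95% interval and filled points for an adjusted p under 0.05. *Slc7a11* at 1.94 and 2.97 and *Srxn1* at 0.91 and 1.51 lie farthest to the right, and at 1 h *Hmox1* at -0.42 and *Keap1* at -0.25 lie below 0 with intervals that do not reach it.

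*Slc7a11* (chr3:49892526-50443614, minus strand) encodes the light chain of system xc-, which imports cystine, the source of cysteine for glutathione, in exchange for glutamate. Its normalized count was 26.0, 17.4, 19.3 and 9.68 in the untreated BMDMs of mice 1 to 4. It was 104, 75.4, 54.9 and 50.2 after 1 h and 223, 136, 122 and 102 after 4 h. Every library at 1 h lay above every untreated library, and the same held for 4 h, whereas the 1 h and 4 h libraries overlapped because mouse 1 at 1 h was above mouse 4 at 4 h. The rise was 3.84-fold at 1 h (log2 fold change 1.94, SE 0.34, adjusted p = 0.000841 in edgeR's quasi-likelihood test) and 7.84-fold at 4 h (2.97, SE 0.33, adjusted p = 4.83e-06). The direct difference between 4 h and 1 h was 1.03 (SE 0.28, adjusted p = 0.0103). Raw counts of *Slc7a11* ranged from 9 to 30 without treatment, from 49 to 101 after 1 h and from 130 to 214 after 4 h. *Slc3a2* encodes the heavy chain that *Slc7a11* and other amino acid transporters share. Without treatment its mean normalized count was 5392 ± 258, which became 11883 ± 342 at 1 h and 8166 ± 560.0 at 4 h (SD, n = 4). Its log2 fold change was 1.14 at 1 h (adjusted p = 1.51e-09) and 0.60 at 4 h (adjusted p = 9.14e-07). The heavy chain fell between 1 h and 4 h by 0.54 on the log2 scale (adjusted p = 3.56e-06) while the light chain rose.

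*Gclc* (chr9:77754535-77794485, plus strand) and *Gclm* (chr3:122245557-122270732, plus strand) encode the catalytic and the modifier subunit of glutamate-cysteine ligase, the rate-limiting enzyme of glutathione synthesis. *Gclc* had normalized counts of 962, 838, 878 and 818 in the untreated BMDMs of mice 1 to 4, of 1453, 1144, 1124 and 1106 at 1 h, and of 1571, 1291, 1282 and 1133 at 4 h. The treated libraries of either time lay above all 4 untreated libraries. The log2 fold change of *Gclc* was 0.46 at 1 h (SE 0.10, adjusted p = 0.00541) and 0.59 at 4 h (SE 0.10, adjusted p = 0.000368), and the step from 1 h to 4 h was 0.13 (adjusted p = 0.367). *Gclm* had normalized counts of 2384, 2007, 1835 and 1901 in untreated BMDMs, 2479, 2205, 1648 and 1842 at 1 h, and 3619.5, 3237, 2484 and 2710.1 at 4 h. Its untreated and 1 h libraries were interleaved, and at 4 h all 4 libraries stood above every untreated and every 1 h library. The log2 fold change of *Gclm* was 0.01 at 1 h (95% interval -0.30 to 0.32, adjusted p = 0.985), with a sign that turned under several settings, and 0.57 at 4 h (SE 0.14, adjusted p = 0.00388). Between 1 h and 4 h *Gclm* rose by 0.56 (SE 0.14, adjusted p = 0.00470).

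The timing of the subunits was compared within each library by the ratio of the counts of *Gclc* to those of *Gclm*, a comparison chosen after their values were seen. The ratio was 0.403, 0.418, 0.478 and 0.430 in untreated BMDMs, 0.586, 0.519, 0.682 and 0.600 at 1 h, and 0.434, 0.399, 0.516 and 0.418 at 4 h. Every 1 h ratio exceeded every untreated and every 4 h ratio. The mean log2 ratio was -1.21 ± 0.11 without treatment, -0.75 ± 0.16 at 1 h and -1.19 ± 0.16 at 4 h (SD, n = 4). The difference of 0.46 between 1 h and untreated, seen in 4 of 4 mice, had p = 0.0286 in a two-sided exact permutation test over the 70 splits of 8 libraries, which ignore the pairing by mouse, and 0.0857 after Benjamini-Hochberg adjustment over 6 such tests. With treatment exchanged only within a mouse the exact permutation p was 0.125, the smallest that this exchange allows with 4 mice, so it could not have passed 0.05. The difference between 4 h and untreated was 0.03 (exact permutation p = 0.743).

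*Gsr* (chr8:33652523-33698163, plus strand) encodes glutathione reductase, which returns oxidized glutathione to its reduced form at the expense of NADPH. Its normalized count was 1079.6, 933, 893 and 838 in untreated BMDMs, 1129, 1125, 889 and 960.2 at 1 h, and 1489, 1232, 997 and 1067 at 4 h. The groups overlapped, since mouse 3 and mouse 4 at 4 h lay below mouse 1 without treatment. Within each mouse the 4 h library was above the untreated one, by 0.16 to 0.46 on the log2 scale. The log2 fold change was 0.13 at 1 h (SE 0.12, adjusted p = 0.533) and 0.35 at 4 h (SE 0.12, adjusted p = 0.0321). The 4 h call was lost in 6 of 22 alternatives, where the adjusted p reached 0.112. With the mouse as a block the 4 h value was 0.34 and passed the test (adjusted p = 0.000192).

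*Srxn1* (chr2:152105516-152111376, plus strand) encodes sulfiredoxin, which reduces overoxidized peroxiredoxins. It had normalized counts of 3563, 3116, 3137 and 2908 in the untreated BMDMs of mice 1 to 4, 7119, 6455, 4958 and 5369.6 at 1 h, and 10367, 10016, 8103 and 7776 at 4 h. The 3 groups were separated from each other without overlap. *Srxn1* rose 1.88-fold at 1 h (log2 fold change 0.91, SE 0.12, adjusted p = 5.48e-05) and 2.85-fold at 4 h (1.51, SE 0.12, adjusted p = 1.50e-07), and the rise from 1 h to 4 h was 0.60 (SE 0.12, adjusted p = 0.00102). *Srxn1* had the second largest fold change of the members after *Slc7a11* at both times. *Txnrd1* (chr10:82833951-82897712, plus strand) encodes the cytosolic thioredoxin reductase, which passes electrons from NADPH to thioredoxin. Its normalized count was 4411, 3821, 3708 and 3704 in untreated BMDMs, 6619, 5937, 5334 and 5485 at 1 h, and 6284, 5691, 5293 and 5214 at 4 h. The treated libraries of both times lay above all untreated libraries and overlapped each other. *Txnrd1* rose 1.49-fold at 1 h (log2 fold change 0.58, SE 0.08, adjusted p = 0.000122) and stood 1.44-fold above untreated at 4 h (0.52, SE 0.08, adjusted p = 0.000133). The difference between the times was -0.06 (95% interval -0.24 to 0.13, adjusted p = 0.635).

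*Hmox1* moved the other way at 1 h. Its normalized count was 16210.5, 15401, 14299 and 13720.4 in the untreated BMDMs of mice 1 to 4, 11812, 11293, 10677 and 10663 at 1 h, and 20137, 14585, 15454 and 14665 at 4 h. All 4 libraries at 1 h lay below every untreated and every 4 h library, and at 4 h mouse 1 stood apart above the other 3. *Hmox1* fell to 0.745 of the untreated level at 1 h (log2 fold change -0.42, SE 0.09, adjusted p = 0.00458), a fall of 0.36 to 0.46 on the log2 scale in the 4 mice. It was higher at 4 h than at 1 h by 0.54 (SE 0.09, adjusted p = 0.000356), and its log2 fold change at 4 h against untreated was 0.12 (95% interval -0.09 to 0.33, adjusted p = 0.335). With single libraries left out, the value at 4 h against untreated ranged from 0.000193 to 0.17 and never passed. Without the library of mouse 1 at 4 h the difference between 4 h and 1 h was 0.42, and it still passed the test. *Nqo1* (chr8:107388225-107403206, minus strand) encodes a quinone reductase that is widely used as a readout of NRF2. Its normalized count was 146, 115, 89.6 and 114 in untreated BMDMs, 134, 127, 82.3 and 119.9 at 1 h, and 189.6, 181, 92.5 and 142 at 4 h. Mouse 3 was the lowest in every group, and the groups overlapped. The log2 fold change of *Nqo1* was -0.01 at 1 h (95% interval -0.52 to 0.50, adjusted p = 0.990) and 0.37 at 4 h (95% interval -0.13 to 0.88, adjusted p = 0.207), with all 4 mice higher at 4 h by 0.04 to 0.65. With the mouse as a block the 4 h value was 0.35 and passed the test (adjusted p = 0.0206).

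*Nfe2l2* (chr2:75675513-75704641, minus strand) had normalized counts of 9119, 8379, 8683 and 8093 in untreated BMDMs, 10858, 10223, 9882 and 8102 at 1 h, and 8625, 8113, 7934 and 7034 at 4 h. At 1 h mice 1, 2 and 3 were above all untreated libraries, whereas mouse 4 was at its untreated level. The log2 fold change was 0.19 at 1 h (SE 0.08, adjusted p = 0.145) and -0.11 at 4 h (SE 0.08, adjusted p = 0.319). The level at 4 h was below that at 1 h in 4 of 4 mice and had dropped by 0.30 on the log2 scale (SE 0.08, adjusted p = 0.0113). With the mouse as a block the 1 h value was 0.18 and passed the test (adjusted p = 0.00853), and it also passed without the 1 h library of mouse 4 (0.27, adjusted p = 0.0156). *Keap1* (chr9:21229730-21239361, minus strand) had normalized counts of 1419, 1451, 1416 and 1463 in untreated BMDMs, 1257, 1044, 1242 and 1295 at 1 h, and 1577, 1261, 1500.1 and 1339.8 at 4 h. The untreated libraries were close together and lay above every 1 h library. *Keap1* fell by 0.25 at 1 h (SE 0.08, adjusted p = 0.0344), stood 0.23 higher at 4 h than at 1 h (SE 0.08, adjusted p = 0.0290), and had a log2 fold change of -0.02 at 4 h against untreated (95% interval -0.19 to 0.16, adjusted p = 0.883). Its 1 h call was lost in 9 of 22 alternatives, with an adjusted p of up to 0.103 when the 1 h library of mouse 2 was left out, and its call between 4 h and 1 h in 7 of 22 (adjusted p up to 0.121). With the mouse as a block *Keap1* passed at 1 h (adjusted p = 0.00735) and between 4 h and 1 h (adjusted p = 0.00722).

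The balance of factor and inhibitor mRNA was given by the ratio of *Nfe2l2* to *Keap1* counts within a library, also chosen after the values were seen. It was 6.43, 5.77, 6.13 and 5.53 in untreated BMDMs, 8.64, 9.79, 7.95 and 6.25 at 1 h, and 5.47, 6.43, 5.29 and 5.25 at 4 h. The ratio was higher at 1 h than without treatment in all 4 mice, and mouse 4 at 1 h lay within the untreated range. The mean log2 ratio was 0.44 higher at 1 h than in untreated BMDMs (exact permutation p = 0.0571, adjusted p = 0.0857 over the 6 tests) and at 4 h it was -0.09 from untreated (exact permutation p = 0.286). Exchanged only within a mouse, the exact permutation p was 0.125, again the smallest it allows, and 0.375.

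Set side by side, the members followed several courses. Between 1 h and 4 h, 5 members rose and 1 fell by the direct test, beside 38.5% of all genes called (18.7% higher and 19.8% lower). *Slc7a11*, *Srxn1* and *Gclm* rose from 1 h to 4 h and ended above untreated. *Hmox1* rose from a low point at 1 h, as did *Keap1* with a call lost in 7 of 22 alternatives, and *Nfe2l2* fell. For *Gclc*, *Txnrd1*, *Gsr* and *Nqo1* the difference between 4 h and 1 h did not pass the test, with log2 values of 0.13, -0.06, 0.22 and 0.38. With the mouse as a block *Gsr* (0.21, adjusted p = 0.00883) and *Nqo1* (0.37, adjusted p = 0.0175) passed it. Libraries of 1 h and 4 h did not overlap for 3 members (*Hmox1*, *Gclm* and *Srxn1*), beside 35.9% of all genes.

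The 4 mice differed in the level of these genes, with mouse 1 at the top for nearly all of them. This was noticed in the values and is given as a description without a test. Mouse 1 had the highest normalized count of the 4 mice in 28 of the 30 combinations of member and group (93.3%), beside 26.3% over all genes tested. For 9 of the 10 members mouse 1 was the highest in all 3 groups, untreated included, which held for 6.08% of all genes tested. *Keap1* was the exception, with mouse 1 on top at 4 h alone and mouse 4 on top in the other groups. The median ratio of mouse 1 to the mean of the other 3 mice was 1.21 over the members and 0.999 over all genes. *Slc7a11* was 1.68 times the mean of the other mice in untreated BMDMs, 1.72 times at 1 h and 1.86 times at 4 h. *Gclm* was 1.25, 1.31 and 1.29 times, and *Nfe2l2* 1.09, 1.15 and 1.12 times. Among the other gene lists of the pathway, mouse 1 was the highest in 63.3% of combinations for NADPH supply and in 58.8% for other detoxification genes, and in 19.0% for the NADPH oxidase. The lists share libraries, and genes of a list are not independent of each other. Without all 3 libraries of mouse 1, 5 members passed at 1 h (4 higher, 1 lower), 6 at 4 h (6 higher) and 5 between the times (4 higher, 1 lower), the calls of *Keap1* being the ones lost. Over all genes tested in that setting, calls went from 2493, 4958 and 4773 to 1740, 4165 and 3934.

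**Figure D4:**
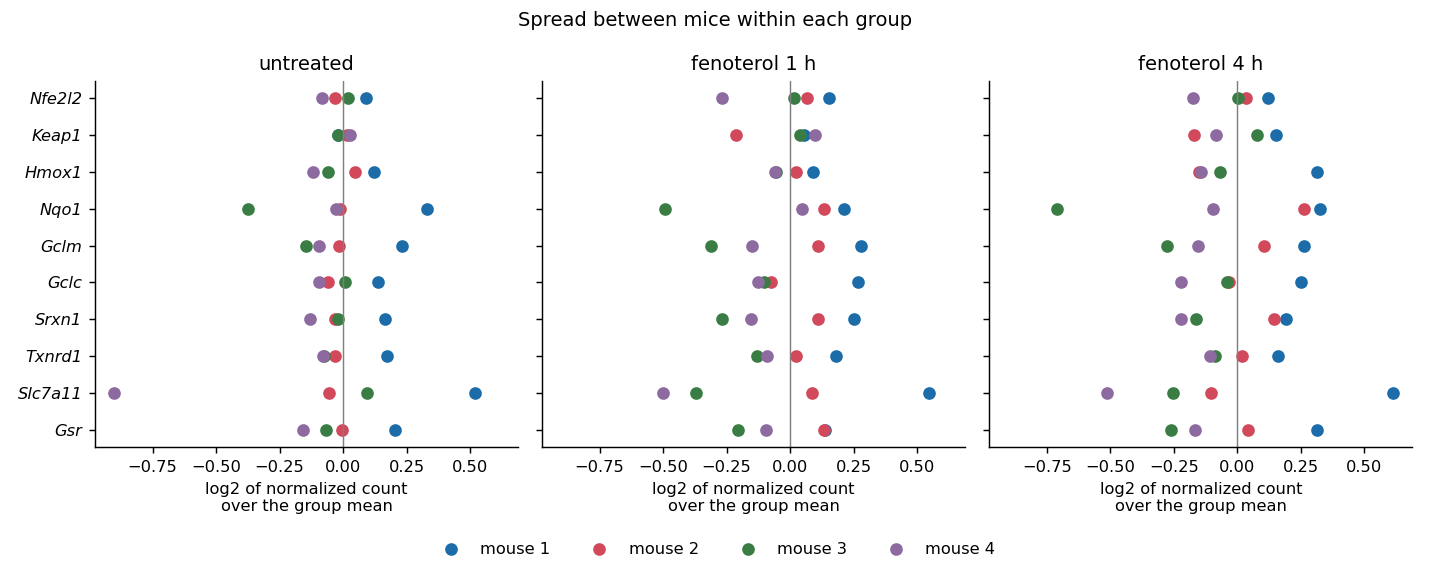
Log2 of the normalized count over the mean of its group (x axis) for each of the 10 genes in each mouse, in untreated BMDMs and after 1 h and 4 h of fenoterol. The points of mouse 1 lie farthest right in 28 of the 30 rows, with the widest spread for *Slc7a11* and *Nqo1*.

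The rest of the pathway was followed in 8 lists of 117 other genes, of which 111 were tested. At 1 h, 18 were higher and 11 lower, which is 26.1% called beside 20.1% of all genes. At 4 h, 29 were higher and 31 lower, which is 54.1% called beside 40.0% of all genes. The median log2 fold change was 0.03 at 1 h and -0.03 at 4 h. Of the 16 partners, repressors and degradation factors of NRF2, 4 were higher and 2 lower at 1 h (37.5% called, beside the 20.1% of all genes), and 4 were higher and 5 lower at 4 h (56.25%, beside 40.0%). *Bach1*, the repressor that competes with NRF2 at antioxidant response elements, had a mean normalized count of 4089.6 ± 301 without treatment, which became 5199.8 ± 186 at 1 h and 3182 ± 171 at 4 h (SD, n = 4). Its log2 fold change was 0.35 at 1 h (adjusted p = 0.000633) and it fell by 0.36 against untreated at 4 h (adjusted p = 0.000195). The small MAF partners moved apart at 1 h. *Maff* rose by 1.59 (adjusted p = 0.000154) from a low untreated level of 31.0 ± 2.19, *Mafk* rose by 0.29 (adjusted p = 0.00557), and *Mafg* fell by 0.48 (adjusted p = 0.000268). At 4 h *Maff* had fallen by 0.75 against untreated (adjusted p = 0.0349), and *Mafk* (-0.05) and *Mafg* (-0.07) did not pass the test. The coactivator *Ep300* fell by 0.52 at 1 h (adjusted p = 3.12e-05). *Syvn1*, which encodes a ubiquitin ligase of the endoplasmic reticulum, rose by 0.22 at 1 h and by 0.30 at 4 h, and *Bach2* rose by 0.77 at 4 h from 46.0 normalized counts. *Sqstm1*, whose product sequesters KEAP1, fell by 0.23 at 4 h (adjusted p = 0.00312), *Fbxw11* fell by 0.33 (adjusted p = 4.33e-05), and *Cul3* was at -0.06 and 0.01 and did not pass the test.

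In the list of thioredoxin, peroxiredoxin and sulfoxide repair genes, 7 of 19 were higher and 3 lower at 1 h, beside 10.0% higher and 10.1% lower of all genes, and 8 were higher and 4 lower at 4 h, beside 19.7% and 20.4%. *Txnip*, the inhibitor of thioredoxin, fell by 1.18 at 1 h (adjusted p = 7.04e-07) and fell by 0.53 at 4 h (adjusted p = 0.000674), from 43221 ± 3821 normalized counts (SD, n = 4). *Sesn1*, a stress-inducible regulator of mTORC1, had log2 fold changes of -1.57 and -2.42, from 9312 ± 888 to 1739 ± 217 at 4 h. Its relative *Sesn2* rose by 0.53 and 0.64, and *Sesn3* rose by 0.84 at 4 h. *Prdx2*, a peroxiredoxin, rose by 0.61 and 0.79, although *Junb* and *Rnaseh2a* lie opposite 5.67% and 5.80% of its exon bases, and the strand option of the counting is not given in the sources used here. *Txn1* rose by 0.29 at 4 h (adjusted p = 0.00775), and *Msrb2* fell, with values of -0.47 and -1.07. Of the 20 tested genes of glutathione synthesis, transfer and use, *Slc3a2* was called at 1 h (5% of the list, beside 20.1% of all genes), joined with the mouse as a block by *Gpx3* (-0.37, adjusted p = 0.0131) and by *Glrx* (0.28, adjusted p = 0.0357), the latter named after its value was seen. At 4 h 4 were higher and 6 lower (50%, beside 40.0%). They included the exporter *Abcc4*, which rose by 0.48, and the peroxidase *Gpx3* and the transferase *Ggt5*, which fell to log2 values of -1.06 and -1.04. With the mouse as a block, *Mgst1* (-0.30, adjusted p = 0.000240), *Gpx1* (-0.26, adjusted p = 0.000402) and *Gstt1* (-0.52, adjusted p = 0.0389) also passed as lower at 4 h. These genes were named after their values were seen.

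In haem and iron handling, 1 of 19 tested genes was higher and 3 lower at 1 h, and 1 was higher and 7 lower at 4 h. The shares called, 21.1% and 42.1%, were near the 20.1% and 40.0% of all genes. *Fth1*, the ferritin heavy chain, rose by 0.22 and 0.28 (adjusted p = 0.0231 and 0.00216), whereas the light chain *Ftl1* (-0.02 and -0.03) did not pass the test. *Slc40a1*, which encodes the iron exporter ferroportin, fell at both times (-0.84 and -2.13), from 11494 ± 736 to 6417 ± 783 and 2628 ± 228 normalized counts (SD, n = 4). *Ncoa4*, the receptor that delivers ferritin to autophagy, also fell, with log2 fold changes of -0.73 and -2.25. Of the 10 genes of NADPH supply, *Me2* rose and *Idh1* fell at 1 h, and at 4 h 3 rose and 3 fell (20% and 60% called, beside 20.1% and 40.0% of all genes), with *Taldo1* at 0.50, *Me2* at 0.32, *Nnt* at -0.47 and *Idh2* at -0.45. The second annotated copy of *Nnt* covers 47.5% of its exon bases. Catalase (*Cat*) fell by 0.73 at 4 h (adjusted p = 0.00172). With the mouse as a block, *Cat* (-0.18, adjusted p = 0.00458) also passed at 1 h and *Sod1*, named after its value was seen, at 4 h (-0.14, adjusted p = 0.0357). These are genes of superoxide and hydrogen peroxide removal. Of 17 other detoxification and NRF2 target genes, 2 were higher and 2 lower at 1 h (23.5% called, near the 20.1% of all genes), and 7 were higher and 3 lower at 4 h (58.8%, beside 40.0%). *Procr*, the endothelial protein C receptor, rose by 0.63 and 1.57, the pseudokinase gene *Trib3* by 0.80 and 1.01, and *Esd* by 1.04 at 4 h. With the mouse as a block *Esd* also passed at 1 h (0.18, adjusted p = 0.0272). *Osgin1* fell by 0.86 at 1 h and rose by 0.51 at 4 h against untreated. *Ephx1* and *Pir* fell at 4 h (-0.87 and -0.56), and *Akr1b10* fell at both times (-0.17 and -0.31). Among 7 genes of the NADPH oxidase, the enzyme that makes superoxide, the cytosolic subunit *Ncf4* rose at both times (0.22 and 0.61). The membrane subunit *Cybb* fell by 0.76 at 4 h and *Rac1* was lower at -0.16, with *Daglb* lying opposite 51.4% of the exon bases of *Rac1*.

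**Figure D5:**
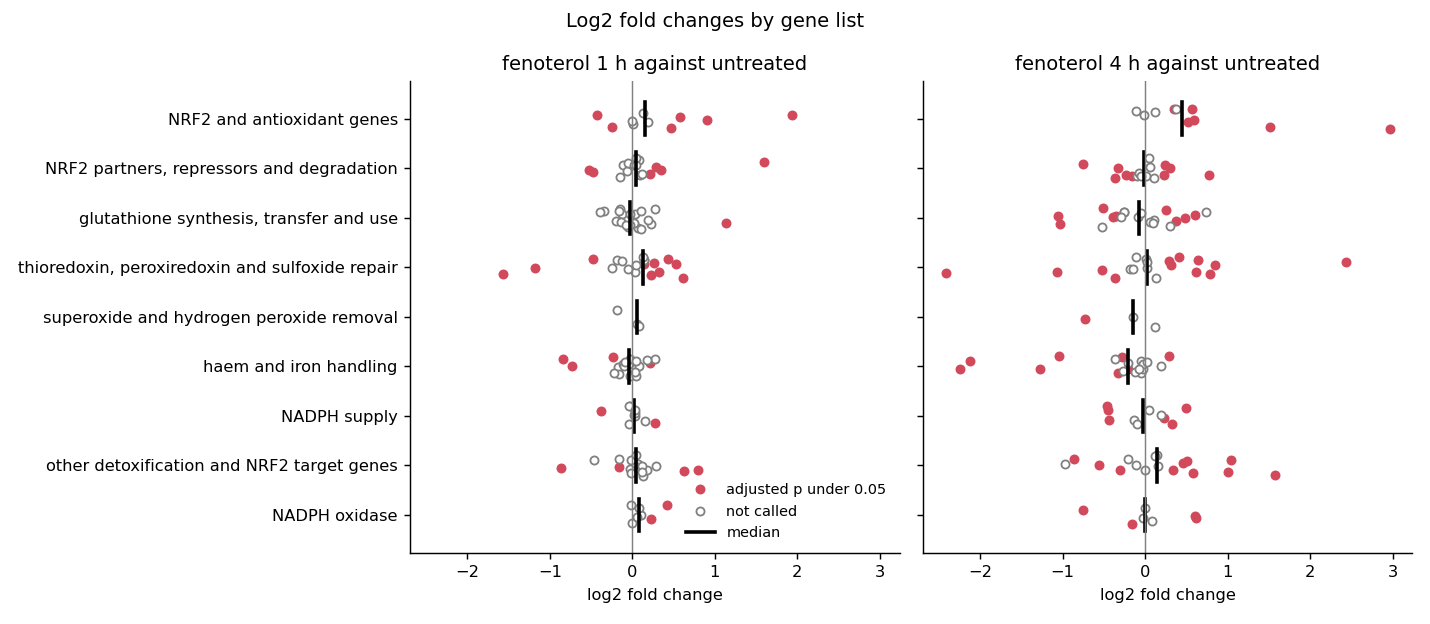
Log2 fold change (x axis) of the 10 members and of the tested genes of 8 other lists at 1 h and 4 h of fenoterol against untreated BMDMs, with a point per gene, filled where the adjusted p was under 0.05, and a bar at the list's median. At 4 h the members had a median of 0.45 and no called point below 0, and the haem and iron list had a median of -0.21.

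The pattern of *Slc7a11*, the member with the largest change, was compared with that of 10288 genes by Pearson's r of log2 normalized counts over the 12 libraries. *Srxn1*, itself a member, was nearest (r = 0.981), followed by *Opa3* (r = 0.980) and *Heatr1* (r = 0.979). These r values describe libraries that fall into 3 treatment groups and share mice. *Opa3* rose by 0.26 at 1 h and 0.40 at 4 h, and *Heatr1* by 0.77 and 1.13, against 1.94 and 2.97 for *Slc7a11*.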

How the data were processed

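RNA was measured in BMDMs of 4 mice, each untreated and after 1 h and 4 h of fenoterol, which gave 12 libraries. According to the methods and the submitters' processing notes, the authors mapped single-end reads of stranded mRNA libraries to GRCm38 with TopHat2 2.0.11 and counted reads per gene with HTSeq 0.8.0. The authors deposited raw counts per gene, and 0 columns of the table were left unused. The strand option and annotation release of the counting are not given in the sources used here. Of 53379 genes, 53274 were matched to GENCODE M21, from which symbols and GRCm38 coordinates were taken.

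Counts were fitted with edgeR 4.0.16 in R 4.3.3 (filterByExpr, TMM, quasi-likelihood test, a mean per group over all 12 libraries, no covariate, since the study's methods name none). Benjamini-Hochberg adjustment covered all 12386 genes of a comparison, with a threshold of 0.05. Standard errors were derived from the log2 fold change and the F statistic of the test. Intervals of 95% use that standard error and 9 residual degrees of freedom, which are not those of the test. An interval can thus reach 0 where p is under 0.05. For *Nfe2l2* at 1 h it was -0.00222 to 0.379 (unadjusted p = 0.0422 in the quasi-likelihood test). Ratios within libraries were compared by exact permutation tests, with and without the pairing by mouse. The fit of the counts was tested on simulated counts. Motifs were searched on both strands of the RefSeq promoters.

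The members and lists were chosen with earlier results of these data known. Named genes were all members, 11 pathway genes always, and from each list the 2 largest rises and falls at each time among called genes whose mean normalized count was 50 or more. For 1 gene that this rule names, values are not reported here. Libraries of a mouse are paired by their labels. Their deviations from the group means correlated over genes, with r of 0.292 to 0.563 in 12 pairs against -0.297 to 0.0796 in the 36 pairs of unlike mice. Replicates spread more than counting error gives (chi-square over its degrees of freedom 9.29 to 19.4). Alternatives were DESeq2 1.42.0, limma-voom (limma 3.58.1), RLE scaling, library size scaling, no filter, a minimum mean count of 50, fits of the compared groups, a block for mouse, a threshold of 0.01, each library left out and, added after seeing the data, mouse 1 left out.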

Additional observations from a re-analysis of the deposited data

Results flagged for a closer look

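In 3 of the 30 combinations of member and group, the library of mouse 1 lay far from the other 3 by Dixon's ratio, where chance alone gives about 1.5 (1 in 20). *Hmox1* at 4 h was at 20137 normalized counts in mouse 1 and at 14585 to 15454 in the others (Dixon's ratio 0.843). *Gclc* at 1 h was at 1453 in mouse 1 and at 1106 to 1144 in the others (0.889). *Txnrd1* in untreated BMDMs was at 4411 in mouse 1 and at 3704 to 3821 in the others (0.834).

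For 6 members the level after 4 h of fenoterol differed from that after 1 h by the direct test (edgeR's quasi-likelihood test, Benjamini-Hochberg adjusted p). The difference of log2 values was 1.03 for *Slc7a11* (adjusted p = 0.0103), 0.60 for *Srxn1* (0.00102), 0.56 for *Gclm* (0.00470), 0.54 for *Hmox1* (0.000356) and 0.23 for *Keap1* (0.0290, a call lost in 7 of 22 alternatives, where the adjusted p reached 0.121). It was -0.30 for *Nfe2l2* (0.0113). Each of these was seen in 4 of 4 mice. The untreated BMDMs have no stated time, so length of treatment and time in culture cannot be told apart.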

How the results depend on the processing

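Under all 22 alternatives *Slc7a11*, *Srxn1*, *Txnrd1*, *Gclc* and *Hmox1* passed at 1 h, *Slc7a11*, *Srxn1*, *Txnrd1*, *Gclc* and *Gclm* at 4 h, and *Hmox1*, *Gclm* and *Srxn1* between 4 h and 1 h. At an adjusted p under 0.01, 3 members passed between 4 h and 1 h in place of 6, and 19 other pathway genes passed at 1 h in place of 29, where calls over all genes went from 4773 to 3296 and from 2493 to 1580. Leaving out single libraries gave 5 to 7 members at 1 h, 5 to 7 at 4 h and 5 to 6 between the times. The 1 h call of *Keap1* was lost without any single untreated library or without the 1 h library of mouse 1, 2 or 3 (adjusted p up to 0.103), and the 4 h call of *Gsr* without the untreated library of mouse 2, 3 or 4 or the 4 h library of mouse 1 or 2 (up to 0.112). The call of *Keap1* between 4 h and 1 h was lost without the 1 h library of mouse 2 or 3 or the 4 h library of mouse 1 or 3 (up to 0.0943), without mouse 1 (0.121) and with only the groups compared (0.0583). *Nqo1* passed at 4 h without the 4 h library of mouse 3 (0.55, adjusted p = 0.0399). With the mouse as a block, which pairs the libraries, 7 members passed at 1 h, 7 at 4 h and 8 between the times, in place of 6 each. Over all genes tested, calls rose from 2493, 4958 and 4773 to 3348, 5870 and 5775 with the block, and those of the other pathway genes from 29, 60 and 58 to 36, 69 and 69. The block added *Nfe2l2* at 1 h, *Nqo1* at 4 h, and *Nqo1* (0.37, adjusted p = 0.0175) and *Gsr* (0.21, adjusted p = 0.00883) between the times. It changed no other call of a member.

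Signs turned for values near 0 that were not called. *Gclm* at 1 h was at -0.00446 with limma-voom, -0.0624 with library size scaling, -0.00256 with the mouse as a block and -0.0119 without mouse 1, and ranged from -0.10 to 0.10 with single libraries left out. *Nqo1* at 1 h was at 0.0483 without mouse 1 and ranged from -0.11 to 0.13 with single libraries left out. *Keap1* at 4 h was at 0.00555 with library size scaling and ranged from -0.0711 to 0.0349. *Txnrd1* between 4 h and 1 h was at 0.0362 with library size scaling and ranged from -0.11 to 0.00880. The log2 ratio of *Gclc* to *Gclm* at 4 h against untreated was -0.00564 without the untreated library of mouse 1 and -0.0504 without the 4 h library of mouse 3, with a range of -0.0504 to 0.0763. The causes were not tested. Library size scaling moved the median of all genes to -0.07 at 1 h, 0.03 at 4 h and 0.10 between the times. *Slc7a11* had 9 to 30 untreated counts, which limits the precision of its fold.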
